A study of Macaca mulatta with 32 samples.

Results

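Compact exonic circRNAs are taken here as the circular RNAs of rhesus macaque brain that the deposited table annotates as exonic and whose joined ends lie under 500 bases apart on the genome. The distance, called the span, was read from the position of each circRNA as end minus start, and no expression value was used to choose the members. There were 3564 of them among 34321 exonic circRNAs (10.4%) and among 52828 circRNAs of every type (6.75%). Total RNA came from healthy rhesus macaques aged 10 or 20 years, 8 animals in all, with no other treatment of any group. RNA of 2 animals of the same sex and age was pooled, which gave the pools 10F, 10M, 20F and 20M, and each pool was sampled in 8 regions, so that every region had 4 libraries and each age 16. The regions were prefrontal (PFC), posterior cingulate (PCC), temporal (TC), parietal (PC) and occipital cortex (OC), hippocampal CA1, dentate gyrus (DG) and cerebellar cortex (CB). All libraries were depleted of polyadenylated and ribosomal RNA and digested with RNase R, an exonuclease that degrades linear RNA, before sequencing.

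A circRNA forms when the spliceosome joins a donor site to an acceptor site that lies upstream of it, which leaves a closed loop with no cap and no tail. Reads that cross this back-splice junction set the loop apart from the linear transcript of the same gene. Loops with a short span are made of a single exon or of a few exons with short introns between them, and circRNAs are plentiful in neural tissue, where many hosts are genes of synapses and of neuronal growth. The table gives no exon boundaries, so the number of exons in each loop was not analysed here. The span is a distance on the genome and contains any intron between the joined ends.

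The study designed divergent primers for 9 of these circRNAs. Such primers point away from each other on the linear gene and amplify only across the back-splice junction. The pairs below are those of TRIM72, which had the largest rise in CB, of LATS1 and MAP4K5, which the primer list puts with circRNAs of 20-year-old animals, and of both compact circRNAs of CAMK1, which are made from separate places of the same gene. They are printed 5′ to 3′ in lower case as the study's supplementary primer list gives them, and the genome build behind the positions is not given in the sources used here.
TRIM72 (chr20:29319558-29319983, plus strand) forward: gacaagccgcagactgagt
TRIM72 reverse: cctccacttccaccaactgat
LATS1 (chr4:113612077-113612563, plus strand) forward: tggtggagtgttggtgttattc
LATS1 reverse: cgctctaatggcttcaatctgt
MAP4K5 (chr7:113540936-113541115, minus strand) forward: ttattgacagaccatggcgat
MAP4K5 reverse: ttgcctttagtatgcaaatagg
CAMK1 (chr2:51237166-51237428, plus strand) forward: ataagaatatccaccagtcggt
CAMK1 (chr2:51237166-51237428) reverse: ggtccttctccatcaagtgc
CAMK1 (chr2:51233749-51234049, plus strand) forward: aggtgctggatgctgtgaa
CAMK1 (chr2:51233749-51234049) reverse: agctgcatgatgaggtagagat

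The values are in TPM as the authors named them, and in each library they are whole multiples of the worth of a single back-splice read. The 32 libraries held 18813 to 894932 back-splice reads (median 179118), of which 2025 to 54231 belonged to compact exonic circRNAs. The shallowest library was that of pool 10F in CB. The study lists over 95% of reads as clean for 5 libraries, PC_10M, DG_20M, CA1_20M, PCC_20F and PFC_20F, and results were also computed without them. Reads that are amplified copies of the same molecule cannot be told apart from separate molecules, so depth gives counting precision only. In bulk tissue, fewer cells of a type and less RNA per cell cannot be told apart. Markers were checked by the summed circRNAs of their genes: of the excitatory neuron list 5 of 11 genes had a circRNA, with sums of 0 to 21.04 TPM in CB against 28.75 to 555.76 TPM in the other regions. The cerebellar granule cell list (4 of 9 genes) ranged from 0 to 28.56 TPM in CB and from 0 to 4.32 TPM elsewhere. Within it GABRA6, the granule cell subunit of the GABA receptor, was above 0 only in CB (up to 18.04 TPM), and ZIC1 was at 0 in CB and reached 4.08 TPM in PFC. The Purkinje cell list (4 of 10 genes) ranged from 48.37 to 112.32 TPM in CB and from 0 to 77.88 TPM elsewhere. None of the 7 dentate granule cell genes and none of the 6 blood genes had a circRNA, so the DG label could not be checked this way.

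Compact circRNAs were short and mostly rare. Their spans ran from 136 to 499 bases with a median of 243 (quartiles 184 and 355), against a median of 7628 bases for the 30757 other exonic circRNAs. They held 606958 back-splice reads, 11.0% of exonic reads and 8.48% of all reads. The median member had 14.5 reads over the 32 libraries (other exonic circRNAs 15), and 1905 members (53.5%) were found in a single library, against 50.1% of the other exonic circRNAs. The study's expression filter kept 1205 of them (33.8%), against 11002 of the others (35.8%). Of these, 613 had at least 3 reads in 2 or more libraries of 2 or more regions, 77 were expressed in 1 region and in at least 6 libraries, and 515 passed only by having at least 30 reads in all, 104 of them in a single library. Only 7 members were above 0 in all 32 libraries, and 286 (8.02%) were above 0 in at least 16. At the other end, 593 members with over 100 reads held 90.4% of the reads, and 106 had over 1000.

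The shortest members were the least often kept. The most populated class, with spans of 150 to 199 bases, had 1011 members, of which 26.3% passed the filter, and the 188 members under 150 bases passed in 17%. From 250 bases upwards between 37.9% and 40.9% passed in every class of 50 bases. Members found in a single library fell from 73.4% of those under 150 bases to 42.0% of those from 450 bases. The length from the first to the last base of the span was divisible by 3 in 52.7% of the members under 150 bases and in 37.1% of all compact circRNAs, against 33.5% of the other exonic circRNAs. Among members that passed the filter the share was 33.9%. The authors selected amplified products within a size window after fragmentation, and the part of that step in these counts was not tested.

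**Figure D1:**
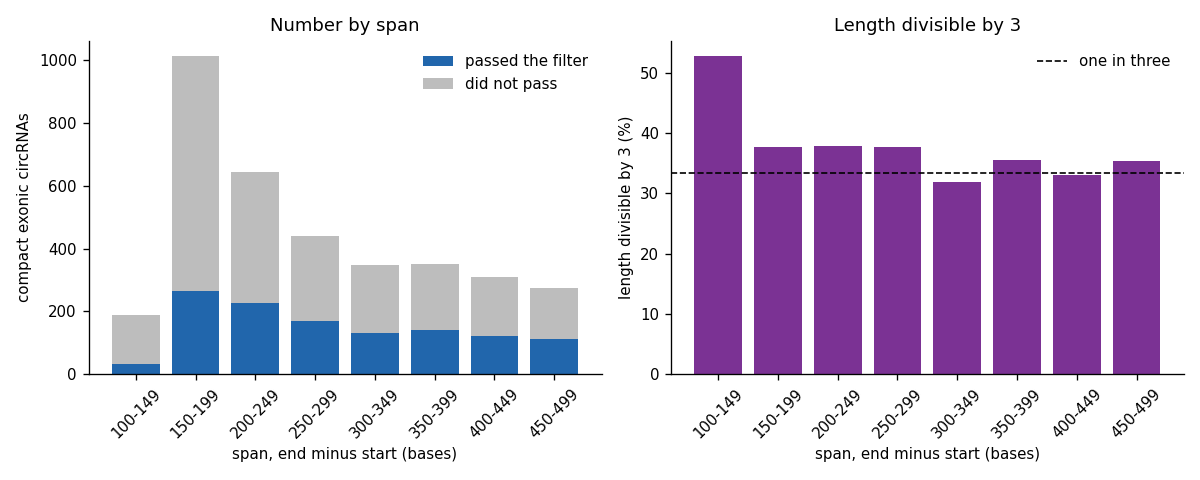
Left, the number of compact exonic circRNAs in each class of span (end minus start, bases), with those that passed the filter in blue and the rest in grey. Right, the percent of each class whose length is divisible by 3, with a dashed line at 1 in 3. The class of 150 to 199 bases is the fullest with 1011 members, and the class under 150 bases has the highest share divisible by 3 (52.7%).

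At the short limit stood a circRNA of PSMC4, an ATPase subunit of the proteasome (chr19:46378150-46378286, 16 reads, not kept), and a circRNA of FBF1, a protein of the base of cilia (chr16:71232741-71232878, 172 reads in 18 libraries). Just inside the limit of 500 bases stood circRNAs of LAMC1, a laminin chain (chr1:187527122-187527621, 45 reads), and of SLC14A1, a urea transporter (chr18:38791303-38791802, 10 reads). Just outside it were circRNAs of FREM1 (span 500 bases, 6 reads) and of NCAPG, a condensin subunit (span 501 bases, 177 reads).

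The members came from 2696 host genes, 36.0% of the 7491 hosts with an exonic circRNA. Most hosts (77.0%) had a single compact circRNA, 45 had at least 4, and 683 hosts had no exonic circRNA that was not compact. Members of the same host share a gene and often a splice site, so they are not independent of each other. DYNC1H1, the heavy chain of cytoplasmic dynein, had the most with 10, of which 3 passed the filter and which lie on both strands. The largest of them (chr7:165282068-165282382) had 809 reads in 24 libraries, a median of 19.3 TPM and a highest value of 129.8 TPM in PCC_10M. SPTAN1, the alpha chain of brain spectrin, followed with 8, the largest of which (chr15:10275306-10275523) had 81 reads, all of them in the library PFC_20F. SMC1A, a cohesin subunit, had 7 compact circRNAs, of which 6 passed the filter, and they held 99.0% of the exonic back-splice reads of the gene. The largest (chrX:51729741-51730068) had 1101 reads and a mean of 132 ± 102 TPM in CB against 7.87 ± 9.48 TPM in PFC (SD, n = 4 each), with an adjusted p of 0.806 for CB and a CB library at 0. The 7 compact circRNAs of PSMD4, the ubiquitin receptor of the proteasome, were led by one with 479 reads (chr1:129671369-129671813).

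Compact circRNAs used splice sites that were seen less often in other loops. In 15.3% of them both ends were also ends of another circRNA of any type, against 33.5% of the other exonic circRNAs. In 44.6% neither end was, against 22.6%. In hosts with several exonic circRNAs, kept compact members more often had the most reads of their host than other kept exonic circRNAs did. Of the kept members, 156 were the only exonic circRNA of their host. Of the 1049 others, 512 (48.8%) had the most reads of the host, against 32.9% of the other kept exonic circRNAs in such hosts, and their median share of the host's exonic reads was 34.8% against 16%. These are counts over circRNAs, which are not replicates, and no test was made.

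By function, the largest shares of a gene group's exonic reads in compact circRNAs were set largely by the leading hosts. In the list of axon guidance and adhesion genes, 30 genes had 48 compact circRNAs (26 kept), which held 29.99% of the list's exonic reads. They were led by ROBO2, a receptor of the repellent Slit, NRCAM, a cell adhesion molecule (1165 reads), and ASTN1, an adhesion protein of migrating neurons (680 reads). In the list of chromatin and transcription cofactor genes, 52 genes had 79 (30 kept), with 28.7% of the list's exonic reads and 9.92% of all compact reads, led by SMARCA5, HDAC9 and CHD2 (5448 reads), a chromatin remodeler. Glutamate receptor genes had 23 compact circRNAs (10 kept) with 28.03% of the list's exonic reads, led by GRM5 (3414 reads) and by GRIA1, an AMPA receptor subunit (826 reads). RNA binding and splicing genes had 49 (19 kept) with 22.2%, led by RBM5 (7622 reads), a splicing regulator, and by the neuronal splicing factor RBFOX1 (1323 reads). These shares rested on the leading hosts. Without ROBO2 the axon guidance and adhesion share was 12.7%, without GRM5 the glutamate receptor share was 10.8% and without RBM5 the RNA binding share was 9.59%. The chromatin share was 15.7% without SMARCA5 and 8.01% without HDAC9 as well. Over all exonic circRNAs the share was 11.0%. In other lists the share was smaller. It was 9.88% for cytoskeleton and motor genes (92 compact, 33 kept), 8.96% for protein kinases (75, 37 kept), 7.83% for zinc finger genes (59, 24 kept), 6.64% for ion channels (22, 8 kept), 2.15% for postsynaptic scaffolds (26, 7 kept) and 1.23% for presynaptic release genes (33, 9 kept). Genes of cerebellar granule and Purkinje cells had 11 (3 kept) with 1.07%. GABA and glycine receptor genes had 2, in GABRA6 and GABRB2, and neither was kept.

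The reads were concentrated in few members. The 10 with most reads held 26.8% of all compact reads, where the top 10 of the other exonic circRNAs held 11.3% of theirs, and 43 members held 50% of the compact reads against 309 of the others. Of the 10, 9 were the main exonic circRNA of their host and 8 held over 90% of its exonic reads. Levels are compared below between regions within each circRNA. Of the 80 tests of the 10 against the other regions 1 passed an adjusted p of 0.05 by limma, that of ROBO2 in CB.

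The largest was the circRNA of SMARCA5, the ATPase of ISWI chromatin remodelers (chr5:135960595-135961059, 32134 reads, 97.4% of the host's exonic reads). It was 3350.99, 2768.15, 2859.05 and 6485.43 TPM in the 10F, 10M, 20F and 20M libraries of CB, and in the other 28 libraries it ran from 0 to 3237.94 TPM. Its CB mean of 3866 ± 1765 TPM was the highest of the 8 regions and its PFC mean of 594 ± 480 TPM the lowest (SD, n = 4), but the groups overlapped and the log2 difference of 2.40 between CB and the other regions had an adjusted p of 0.179. The circRNA of EML5, a microtubule-associated protein (chr7:151959842-151960001, 27076 reads), was above 0 in all 32 libraries, with a lowest level of 221.66, a median of 1067 and a highest of 2893.74 TPM. DG (2108 ± 776 TPM) and CB (2067 ± 561 TPM) were at the top of its order and PC (470.1 ± 208 TPM) and PFC (417.8 ± 363 TPM) at the bottom. Its difference in CB (log2 1.30) had an adjusted p of 0.0762.

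STX17 encodes the syntaxin that fuses autophagosomes with lysosomes, and its compact circRNA (chr15:36259767-36260004, 20006 reads) was highest in TC (1111 ± 507 TPM) and lowest in CB (291.3 ± 279 TPM). The circRNA of SPG20, the gene of spartin (chr17:15578221-15578554, 16768 reads), was the only exonic circRNA of its host and was above 0 in all libraries, from 209 TPM in DG_10M to 1208 TPM in PCC_20M with a median of 498 TPM. HDAC9, a class IIa histone deacetylase, gave a circRNA (chr3:107472768-107473031, 14872 reads) with a mean of 701 ± 450 TPM in PFC and 131 ± 100 TPM in CB. None of these 3 passed the test in any region.

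The circRNA of ROBO2 (chr2:1573171-1573497, 12616 reads) was the member of the 10 with a called difference. It was 0, 0, 48.88 and 32.98 TPM in the 10F, 10M, 20F and 20M libraries of CB and ran from 89.02 to 810.11 TPM (median 440.5) in the other 28, so that the groups did not overlap. Its highest mean was in TC (588.6 ± 94 TPM) and its lowest outside CB in OC (151 ± 57.3 TPM).

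SUCLA2, a subunit of the succinyl-CoA synthetase of the citric acid cycle, gave a circRNA (chr17:26801206-26801641, 10670 reads) with the narrowest order of regions, from 390.7 ± 232 TPM in PC to 245.4 ± 64 TPM in CB. That of MDM2, the ubiquitin ligase of p53 (chr11:65812920-65813210, 10565 reads), was 955.5 ± 184 TPM in TC and 102.4 ± 76 TPM in PFC, and all 4 TC libraries were above all 4 PFC libraries, but the log2 difference of -2.90 for PFC had an adjusted p of 0.298. The circRNA of R3HDM1 (chr13:116543091-116543383, 9448 reads) was the second of its host, with 40.4% of its exonic reads, and ranged from 460.4 ± 324 TPM in PC to 109.7 ± 69.5 TPM in CA1. That of MXI1, a repressor that pairs with MAX and opposes MYC (chr9:109971083-109971254, 8767 reads), ranged from 533 ± 229 TPM in CB to 197.6 ± 140 TPM in PFC.

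**Figure D2:**
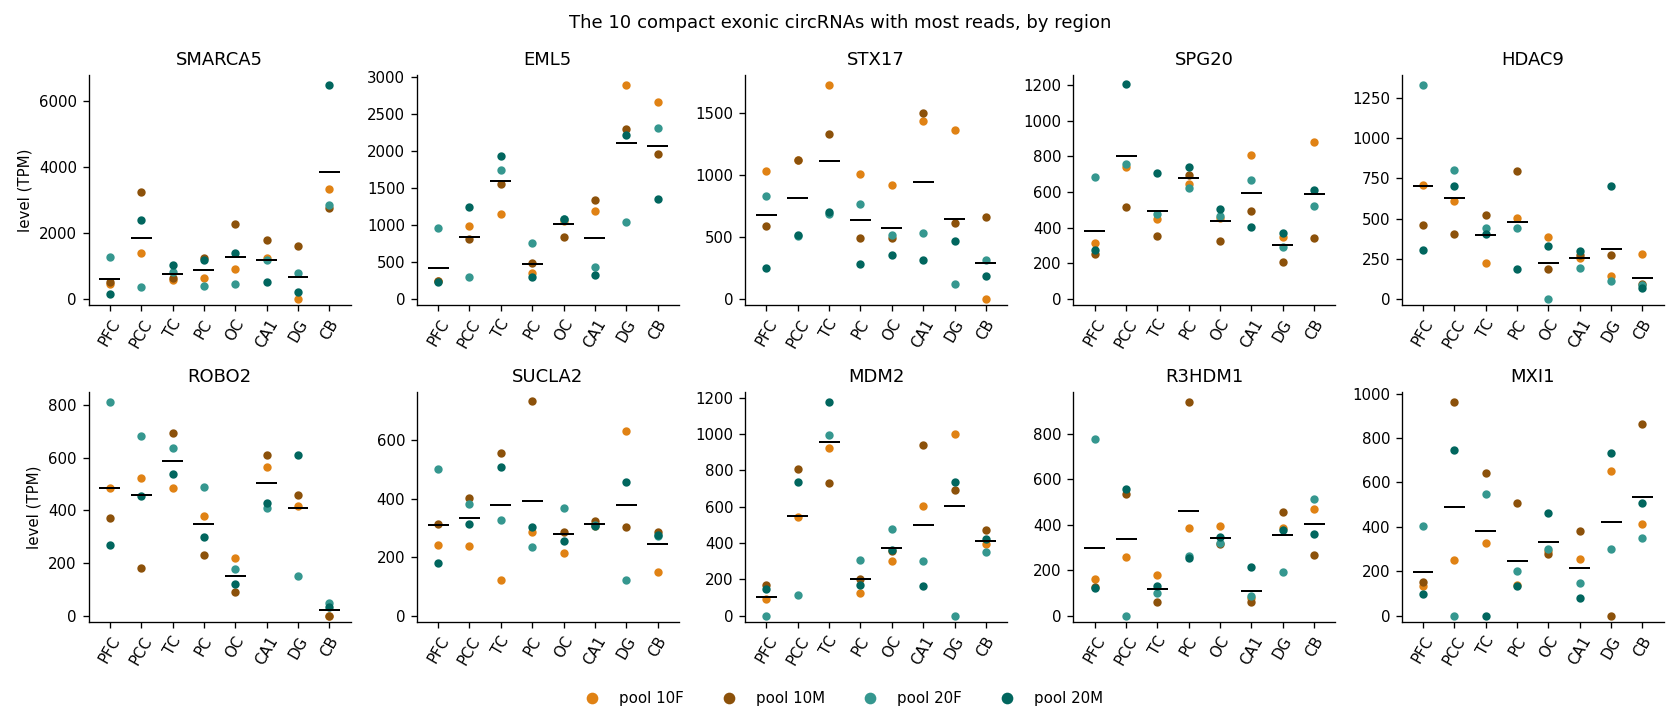
Level in TPM of the 10 compact exonic circRNAs with most reads (1 panel per host gene), by brain region. Points are single libraries coloured by pool and bars are means of 4 libraries. SMARCA5 is highest in CB (mean 3866 TPM) and ROBO2 lowest there (mean 20.46 TPM), while the points of most panels overlap between regions.

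The share of exonic back-splice reads that fell in compact circRNAs asked whether short loops as a class differ between regions or ages. It ran from 7.90% to 15.3% over the 32 libraries with a median of 12.3%. It was 14.3 ± 0.548% in CB and 13.9 ± 0.891% in TC, and at the other end 9.93 ± 0.703% in PC and 10.1 ± 1.06% in PFC (SD, n = 4). DG (12.7 ± 0.995%), OC (12.8 ± 1.47%), PCC (12.5 ± 3.19%) and CA1 (11.3 ± 1.87%) lay between. CB exceeded the other 28 libraries by 2.39 percentage points (two-sided exact permutation test, p = 0.0164), PC was lower by 2.59 points (exact p = 0.0217) and PFC by 2.43 points (exact p = 0.0327), and with adjustment over the 8 regions these became 0.0870, 0.0870 and 0.0872, so that no region passed. Without the 5 libraries with over 95% clean reads PFC (-3.27 points) and PC (-3.16 points) passed, each with an adjusted exact permutation p of 0.0356. Depth differed between regions, and the PFC and PC libraries held 181780 to 430956 back-splice reads. The deepest library, PCC_20F (894932 reads), had a share of 7.90%, and CA1_20M (811958 reads) had 8.57%. Shares were higher in OC_20M (361224 reads, 12.1%) and DG_20M (273137 reads, 14.2%). The part of depth in these shares was not tested. The CB difference sat in the longest members. Spans of 400 to 499 bases held 4.85% to 6.25% of exonic reads in the CB libraries and 1.99% to 4.29% in the others, without overlap, whereas the share of spans under 400 bases differed by -0.06 points in CB. SMARCA5 (1.90% of exonic reads in CB on average, 0.625% elsewhere) and TRIM72 (0.747% and 0.00752%) made up most of this. Without SMARCA5 the same spans held 3.03% to 3.74% in CB and 1.77% to 2.76% elsewhere, again without overlap. With spans under 400 bases TC stood highest, by 2.49 points over the other regions (exact permutation test, p adjusted over 8 regions = 0.0116). The share was 12.4 ± 1.98% at 10 years and 11.95 ± 2.19% at 20 years (SD, n = 16 each; two-sided permutation test, p = 0.518).

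**Figure D3:**
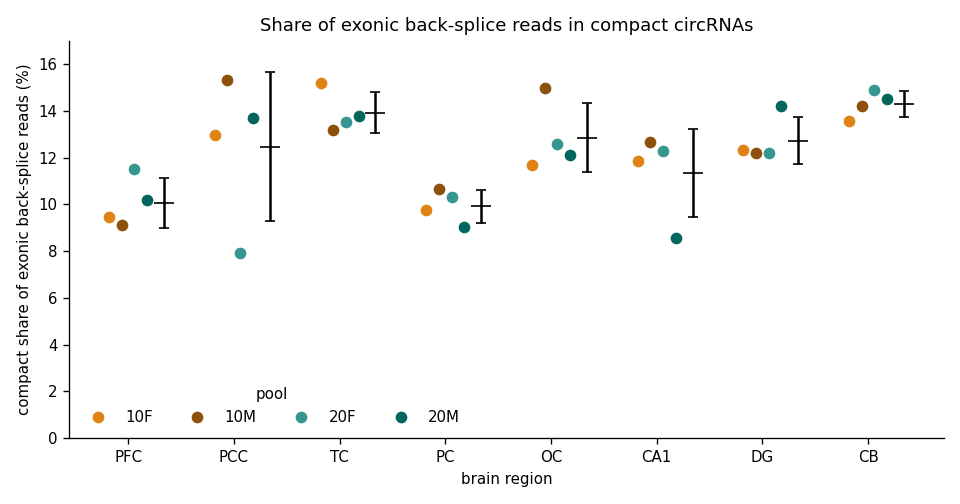
Percent of exonic back-splice reads in compact circRNAs (vertical axis) by brain region. Points are libraries coloured by pool, and the bar and whiskers at the right of each group are the mean and SD of 4 libraries. CB (14.3 ± 0.548%) and TC (13.9 ± 0.891%) are at the top and PC (9.93 ± 0.703%) at the bottom, with PCC spread from 7.90% to 15.3%.

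Of the 8 regions, CB had the most compact circRNAs that differed. Each region was compared with the other 7 by limma on log2(TPM + 2.455), with adjustment over all 17050 circRNAs kept by the filter, and a log2 difference on this scale understates the change of low values. In CB 35 of 1205 kept compact circRNAs were higher (2.90%), where 2.01% of all kept circRNAs were, and 10 were lower (0.830%), where 0.669% of all were. The median log2 difference in CB was -0.09 over the kept compact circRNAs and -0.14 over all kept circRNAs. The count of members tested holds those that passed the filter through a high level in 1 region, for which a difference was more likely.

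The circRNA of TRIM72 (chr20:29319558-29319983), a gene known for the repair of muscle cell membranes, had the largest difference. It was 2620.89, 1677.12, 1071.06 and 1123.41 TPM in the 10F, 10M, 20F and 20M libraries of CB, and at most 30.87 TPM in the other 28, of which 18 were above 0. The groups did not overlap (log2 difference 7.38 ± 0.76 (SE), adjusted p = 1.15e-07), and it held 99.9% of the exonic reads of its host. The study reported circTRIM72 as enriched in CB by RT-qPCR. The circRNA of FGFR1, a receptor of fibroblast growth factors (chr8:38917171-38917349), was 187.21, 34.56, 21.73 and 43.97 TPM in CB, and 1 of the 28 other libraries was above 0, at 5.77 TPM (log2 difference 4.37 ± 0.33, adjusted p = 2.28e-10). It passed the filter through its CB reads, so a difference there was favoured beforehand and this p value adds little support. Another member without overlap was that of JMJD1C, a protein of the histone demethylase family (chr9:73879956-73880120), which was named after its values were seen. It was 168.49, 82.65, 123.83 and 90.14 TPM in CB and at most 53.08 TPM elsewhere. Non-overlap in this direction was found for 3 of the 1205 and for 0.311% of all kept circRNAs. Of the 35 members higher in CB, 9 were above 0 in at most 3 of the other 28 libraries.

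The other members with the smallest p values were low in reads and overlapped with single libraries of other regions. The circRNA of RPRD2, a regulator of RNA polymerase II (chr1:128826898-128827073), was 0, 15.03, 27.16 and 54.96 TPM in the 10F, 10M, 20F and 20M libraries of CB, and 1 of 28 other libraries was above 0, at 12.03 TPM. This circRNA, like that of FGFR1, passed the filter through its CB reads. That of IREB2, an iron-responsive RNA binding protein (chr7:57525092-57525431), was 112.32, 13.53, 20.64 and 19.79 TPM in CB, with 6 of 28 others above 0 and a highest value of 57.98 TPM. That of ACBD5, a peroxisomal membrane protein (chr9:27287188-27287434), was 93.6, 13.53, 27.16 and 21.98 TPM in CB, with 7 of 28 others above 0 and a highest value of 49.22 TPM. Apart from the 0 of RPRD2, the CB values lay above most of the other libraries, which were mostly at 0. That of ST3GAL2, a sialyltransferase that acts on gangliosides (chr20:72276652-72277080), was 93.6, 25.55, 16.29 and 21.98 TPM in CB and at most 27.27 TPM elsewhere. The log2 differences of the 4 were 2.65 ± 0.45, 3.19 ± 0.56, 2.96 ± 0.54 and 3.21 ± 0.60 in that order, with adjusted p from 0.000397 to 0.00128. A single read was worth 18.7 TPM in the library of pool 10F in CB, so that values there rest on few reads.

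Several members higher in CB belonged to the fixed gene lists. From the presynaptic list these were ERC1, a scaffold of the active zone (log2 difference 3.27), and CADPS2, a factor of dense-core vesicle release (2.18), which made 2 of 9 kept compact circRNAs of that list. From axon guidance and adhesion ASTN2, a protein of neuronal migration, was higher (3.24), from the kinases FGFR1 and CLK1, a kinase of splicing factors (3.24), from RNA binding genes RBM5 (chr2:86313918-86314078, 1.77) and RBM25 (1.93), and from the zinc finger genes ZNF521 (3.31). RBM25 lost its call with the pool as a block (adjusted p = 0.0568 by limma). The circRNA of RBM5 that rose was not the largest of that host. None of the 30 kept chromatin, 33 cytoskeleton, 8 ion channel, 7 scaffold or 3 cerebellar cell members was called in CB by limma. At an unadjusted limma p under 0.05, 5 chromatin, 5 cytoskeleton, 0 channel, 1 scaffold and 0 cerebellar members were higher in CB and 1 chromatin member was lower, where 7.72% of all kept circRNAs were higher and 2.85% lower, and by an exact permutation p under 0.01 these lists had 1, 1, 0, 0 and 0 members that were higher (3.20% of all). Over all kept compact circRNAs that exact rule gave 58 higher (3.20% of all) and 3 lower in CB (0.217% of all).

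Some hosts of these members gave other circRNAs that rose in CB as well. Of the 35, 23 had other kept circRNAs of the same host, 110 in all, and 21 of these, in 7 hosts, were also called higher in CB and 0 lower. Of all kept circRNAs 2.01% were called higher and 0.669% lower. A log2 difference above 0 in CB was found for 76 of the 110, where 36.2% of all kept circRNAs had one. All 4 other kept circRNAs of ZNF521 were called, 6 of 12 of TIAM1, an activator of Rac, 6 of 13 of CADPS2, and both of CHN2, a GTPase-activating protein for Rac. The TIAM1 member (chr3:15358485-15358982) was 542.9, 169.82, 388.88 and 400.12 TPM in the 10F, 10M, 20F and 20M libraries of CB against a median of 44.7 and a highest value of 294.79 TPM elsewhere. Spans of the 35 ran from 160 to 497 bases with a median of 285, their reads from 38 to 3143 with a median of 126, and 18 were above 0 in all 4 CB libraries. With pool 10M, 20F or 20M left out of every region the count was 12 each time, and with pool 10F left out 36.

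**Figure D4:**
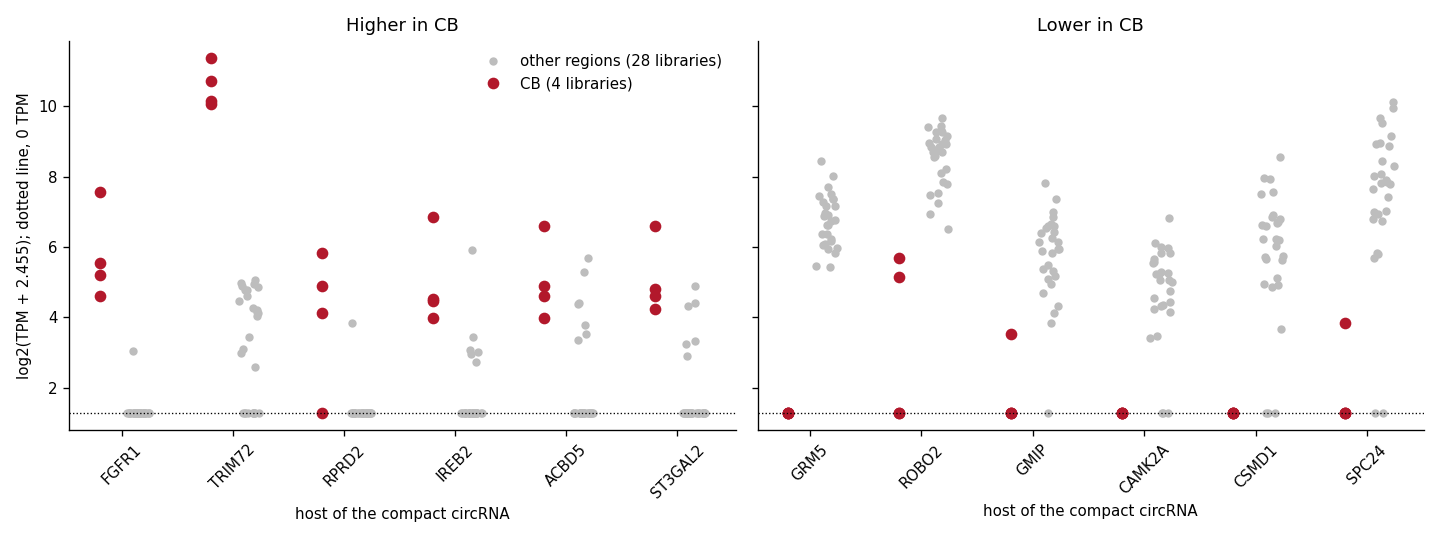
Compact exonic circRNAs with the smallest p among those higher (left) and lower (right) in CB, as log2(TPM + 2.455). Red points are the 4 CB libraries, grey points the 28 libraries of the other regions, and the dotted line marks 0 TPM. TRIM72 and FGFR1 on the left and GRM5 and ROBO2 on the right show no overlap between the groups.

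The members lower in CB included circRNAs of a glutamate receptor, a synaptic kinase and an axon guidance receptor. The circRNA of GRM5, the metabotropic glutamate receptor mGluR5 (chr14:87045012-87045261, 3414 reads), was at 0 in all 4 CB libraries and above 0 in all 28 others, with a median of 105.4 and a highest value of 342.3 TPM. The groups did not overlap (log2 difference -5.45 ± 0.39, adjusted p = 7.27e-11). With 3 reads assumed over the 486881 back-splice reads of CB, its level was 83.0-fold lower there. The smallest value above 0 is 2 reads, so each library at 0 may hide a single read, and such figures are not strict bounds. ROBO2, described above, was the other member without overlap (log2 difference -5.18 ± 0.53, adjusted p = 1.15e-07), which made 2 of 1205, where 0.0645% of all kept circRNAs were without overlap in this direction.

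That of CAMK2A, the alpha subunit of the synaptic kinase CaMKII (chr6:146730805-146731120), was at 0 in CB and above 0 in 25 of 28 others, with a median of 30.9 TPM (log2 difference -3.39 ± 0.61). With 3 reads assumed in CB it was 17.5-fold lower. That of CSMD1, a complement regulator (chr8:4034176-4034383), was at 0 in CB and above 0 in 25 of 28 others, with a median of 71.4 TPM (log2 difference -4.47 ± 0.83). By the same assumption it was 51.6-fold lower. In both the 3 libraries at 0 outside CB made the groups overlap. The circRNAs of GMIP (chr19:19338049-19338535), and of SPC24, a kinetochore protein (chr19:10966411-10966699), were above 0 in CB in the 10M library alone, at 9.02 and 12.02 TPM, against means of 67.5 ± 48.8 and 315.5 ± 292 TPM in the other 28 libraries. Their log2 differences were -3.87 ± 0.58 and -5.52 ± 1.04. The remaining 4 were THRB, a thyroid hormone receptor that was at 0 in CB and 38.4-fold lower by the same assumption, SYNJ2, PSPC1 and MCOLN1. Without CB_10M, the deepest library of CB, these figures are 52.9-fold for GRM5, 11.2-fold for CAMK2A, 32.9-fold for CSMD1 and 24.5-fold for THRB. Of 37 other kept circRNAs of the hosts of these 10, 31 had a log2 difference below 0 in CB, where 63.8% of all kept circRNAs did, and 1, of THRB, was called.

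The excitatory neuron list, which holds CAMK2A itself, moved with these members, at 0 to 21.04 TPM in CB against 28.75 to 555.76 TPM elsewhere. Its part in the lower values was not tested. The ranges of the Purkinje and granule cell lists in CB overlapped those elsewhere, as given above, and RORA, of the Purkinje list, was at 0 in CB and reached 51.88 TPM elsewhere. The part of these cells in the higher values was not tested.

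The other 7 regions had 17 compact circRNAs with a called difference, where 1.30% of all kept circRNAs had one (1.41% of the compact). None was free of overlap between the groups, and by an exact permutation p under 0.01 there were 68 (5.35% of all). In TC 5 were higher (0.188% of all kept circRNAs were), led by a circRNA of the gene ENSMMUG00000017896 (chr6:70033233-70033513), which was 12.55, 20.58, 30.66 and 0 TPM in the 10F, 10M, 20F and 20M libraries and 0 in the other 28. Each library at 0 may hide a single read, so no fold is given. All of its 38 reads were in TC, through which alone it passed the filter, and 26 of them were in TC_20F. FRMD4A, a scaffold of cell polarity, was 10.98, 0, 16.51 and 37.68 TPM in TC and at most 9.17 TPM elsewhere. PLXNA1, a semaphorin receptor of the axon guidance list, was 4.71, 41.17, 56.61 and 15.94 TPM there and at most 27.87 TPM elsewhere. TBC1D20 and LARGE made up the 5.

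In PFC 2 were higher (0.135% of all) and 1 was lower (0.0293%). HAUS5, a subunit of the augmin complex of the spindle, was 29.78, 0, 34.23 and 2.52 TPM in the 10F, 10M, 20F and 20M libraries of PFC and 0 in the other 28, and it passed the filter through PFC alone. TNNT1, a troponin, was 7.45, 5.77, 17.93 and 9.07 TPM in PFC and at most 20.94 TPM elsewhere. LCOR, a corepressor of nuclear receptors, was lower, at 40.53, 0, 44.01 and 0 TPM against a median of 167.9 TPM in the others, all 28 of which were above 0.

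OC had 3 higher (0.182%). ARID4A, a chromatin protein that binds RB, was 15.38, 2.07, 17.08 and 9.17 TPM in its 10F, 10M, 20F and 20M libraries, with 2 of 28 others above 0. SVIL, an actin-binding protein, was 20.11, 13.46, 14.24 and 9.71 TPM, with 7 of 28 others above 0. The last was ESRRG, an orphan nuclear receptor. PC had 2 higher (0.370%), a circRNA of ENSMMUG00000029348 (14.26, 0, 6.22 and 15.32 TPM, 1 of 28 others above 0) and that of HEATR3 (11.67, 69.38, 49.76 and 57.46 TPM against at most 39.57 TPM). The circRNA of ENSMMUG00000029348 passed the filter through its PC reads. PCC had 1 higher (0.0880%) and 0 lower (0.0117%), ARPC1A being the higher, a subunit of the Arp2/3 complex (26.71, 8.85, 20.17 and 36.09 TPM against at most 31.38 TPM). With the pool as a block limma no longer called ARPC1A (adjusted p = 0.0747), which left PCC with no call, nor ESRRG (0.0710), and in TC and CA1 it no longer called PLXNA1 (0.0573), TBC1D20 (0.0536) and BIRC6 (0.0537).

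In CA1 2 were higher (0.0704%) and 1 was lower (0.0176%). YLPM1 was 24.38, 14.55, 0 and 7.49 TPM and BIRC6, an inhibitor of apoptosis, 18.28, 18.19, 8.37 and 0 TPM in the 10F, 10M, 20F and 20M libraries, each with 3 of 28 others above 0. TNIP1, which restrains NF-kappaB signalling (chr6:147455709-147456133), was at 0 in all 4 CA1 libraries and above 0 in 26 of 28 others with a median of 30.6 TPM (log2 difference -3.56 ± 0.61, adjusted p = 0.0067). With 3 reads assumed in CA1, its level was 44.5-fold lower there. CA1_20M holds 811958 of the 1010595 reads behind that figure, which is 8.74-fold without it, and the call was lost without the 5 libraries that include it. In DG limma called 0 compact circRNAs (0.0821% of all kept circRNAs were higher there and 0.117% lower), with a smallest adjusted p of 0.142. At an unadjusted limma p under 0.05, 50 were higher and 47 lower (2.56% and 3.48% of all), and by an exact permutation p under 0.01 9 differed (0.575% of all).

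Between the ages no compact circRNA passed. By limma with region and sex as covariates 0 of 1205 were higher at 20 years (0.0235% of all kept circRNAs were) and 0 higher at 10 years (0.00587%). At an unadjusted limma p under 0.05, 35 were higher at 20 years and 35 at 10 years, where 2.77% and 2.48% of all kept circRNAs were. By an unpaired test on TPM that assumes normal values, with 16 against 16 libraries, 14 were higher at 20 years and 24 at 10 years at an unadjusted p under 0.05, where 1.52% and 1.45% of all were. The age difference itself differed between the sexes by limma for 1 member, KIF1B, where 0.0469% of all kept circRNAs passed. The libraries of a pool come from the same animals, so 16 against 16 libraries rest on 4 pools of 2 animals, and p values for age are too small. More kept compact circRNAs were found in more libraries at 20 years (618, 51.3%) than at 10 years (371), as over all kept circRNAs (51.7% in more libraries at 20 years), and the libraries of 20 years held 4526599 back-splice reads against 2632680. The part of depth in the differences below was not tested.

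The member with the smallest p for age was the circRNA of TAF9, a subunit of the transcription factor TFIID (chr6:67221430-67221736, the only exonic circRNA of its host). At 10 years it was above 0 in 15 of 16 libraries, with a median of 84.4 and a highest value of 395.16 TPM, and at 20 years in 7 of 16, with a median of 0 and a highest value of 150.94 TPM. The groups overlapped, its mean was lower at 20 years in 8 of 8 regions, and the log2 difference was -2.81 ± 0.57 (adjusted p = 0.0904). With the correlation within pools estimated its adjusted p was 0.0167, but that correlation came out negative (-0.030), which makes p smaller for a difference between pools, so that this value adds no support. Without the 5 libraries with over 95% clean reads, 4 of them of 20 years, its log2 difference was -2.24 and its adjusted p 0.982.

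Toward 20 years the circRNA of LATS1, a kinase of the Hippo pathway, came first. At 10 years it was above 0 in 9 of 16 libraries, with a median of 7.20 and a highest value of 44.07 TPM, and at 20 years in 16 of 16, from 9.78 TPM through a median of 25.7 TPM to 81.72 TPM. Its mean was higher at 20 years in 8 of 8 regions, and the groups overlapped (log2 difference 1.82 ± 0.42, adjusted p = 0.205). With the correlation within pools estimated its adjusted p was 0.0457, which rests on the same negative correlation and adds no support. Without the 5 libraries with over 95% clean reads its adjusted p by limma was 0.982, at a log2 difference of 1.62. It held 91.1% of the exonic reads of its host.

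The next members toward 20 years were no closer to the threshold. The CAMK1 circRNA at chr2:51233749-51234049 was above 0 in 3 of 16 libraries at 10 years and in 12 of 16 at 20 years, with a highest value of 34.2 TPM, and its mean was higher at 20 years in 8 of 8 regions (log2 difference 1.35 ± 0.37, adjusted p = 0.519). The study reported circCAMK1 as specific to the older animals by RT-qPCR, and its primer list puts this circRNA with that age. The circRNA of MGEA5, the enzyme that removes O-GlcNAc, was above 0 in 10 and 16 libraries. Its medians were 17.9 and 36.4 TPM (log2 difference 1.72). That of HSPA9, the mitochondrial Hsp70, was above 0 in 1 library at 10 years and in 8 at 20 years, 7 of them of the pool 20M, so that a single pool carried the difference. That of IGDCC4, a membrane protein of the immunoglobulin family, was above 0 in 8 and 13 libraries (log2 difference 1.29).

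Toward 10 years PHIP, which binds the insulin receptor substrate, was above 0 in 16 and 11 libraries at 10 and 20 years, with medians of 54.0 and 24.9 TPM (log2 difference -1.84). CNTRL, the centrosome protein centriolin, was above 0 in 11 and 4 libraries and its mean was lower at 20 years in 8 of 8 regions (-2.04). SCNM1, a splicing factor of sodium channel transcripts, was above 0 in 14 and 10 libraries (-1.16), and SOS2, an exchange factor of Ras, in 16 and 12 (-1.32). The adjusted p of these 4 ran from 0.381 to 0.775. Of the 10 compact circRNAs with most reads the smallest p for age was that of MDM2 (log2 difference -1.11 ± 0.58, adjusted p = 0.810). The circRNA of STX17 had a mean of 963 ± 460.1 TPM at 10 years and 460 ± 212 TPM at 20 years (SD, n = 16 each) and a lower mean at 20 years in 8 of 8 regions, with 0 in CB_10F. Its fitted log2 difference was -0.68 ± 0.52, and its adjusted p by limma ran from 0.213 to 1 over the alternatives.

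**Figure D5:**
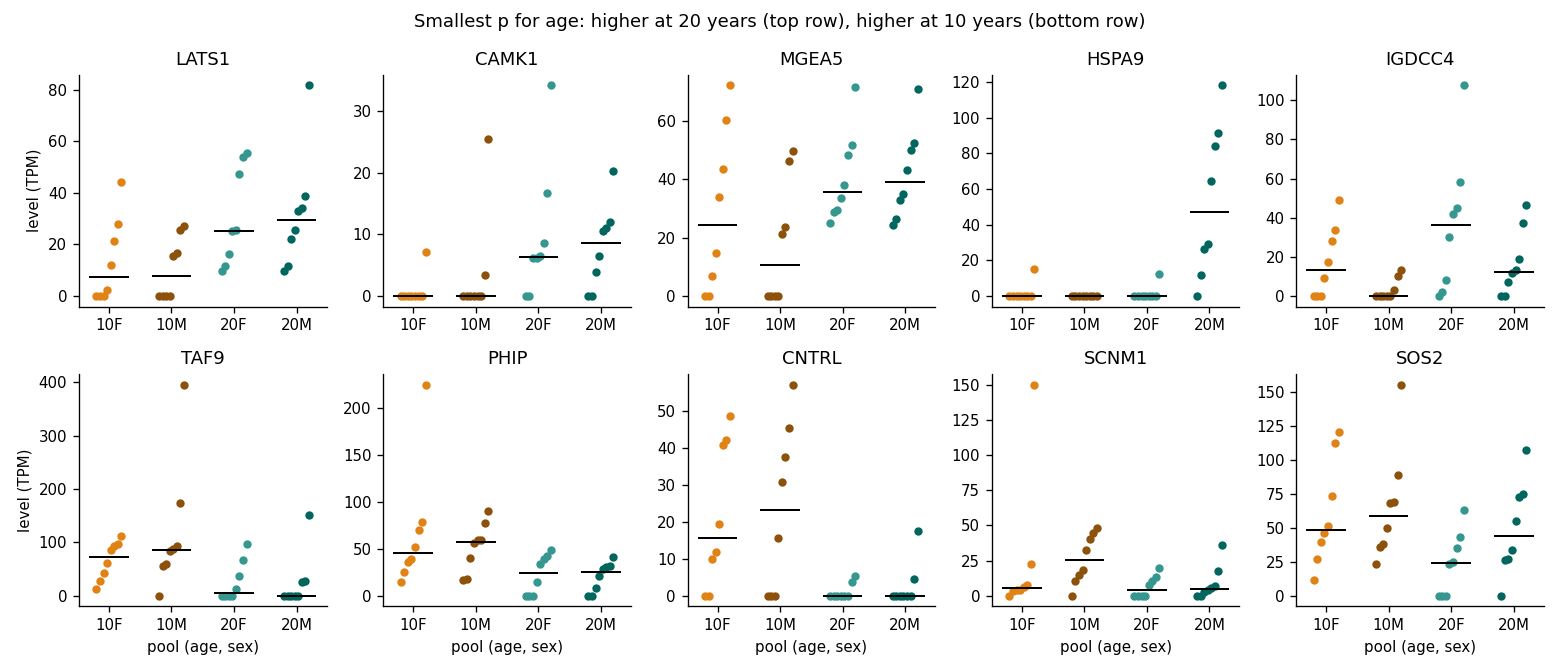
Level in TPM of the 5 compact exonic circRNAs with the smallest p in each direction of age, by pool (8 libraries each, 1 per region). Points are libraries sorted by value and bars are medians. TAF9 is mostly at 0 at 20 years and LATS1 is above 0 in all 16 libraries of that age, while every panel shows overlap between the ages.

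None of the remaining circRNAs with designed primers passed the threshold in a region or for age. MAP4K5, a kinase of the germinal centre family (66 reads), was 0 in all 16 libraries at 10 years and above 0 in 5 of 16 at 20 years, 4 of them of the pool 20M, with a highest value of 45.94 TPM (log2 difference 0.82, adjusted p = 0.810). MAP3K9, a kinase of the JNK pathway (chr7:133851636-133851816, 3001 reads), which the primer list also puts with 20 years, had medians of 95.0 TPM at 10 years and 98.6 TPM at 20 years (log2 difference 0.24, adjusted p = 0.877). Its difference was 1.03 in females and -0.54 in males. The study also measured circMAP3K9 with age by RT-qPCR in the hippocampus.

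The larger CAMK1 circRNA (chr2:51237166-51237428, 5602 reads), listed for OC, held 96.6% of the host's exonic reads and was 247 ± 13 TPM in OC, below 368 ± 148 TPM in TC and close to 244 ± 121 TPM in PCC, with no region past the threshold (adjusted p for OC 0.939). By RT-qPCR the study found circCAMK1 enriched in OC. Toward 20 years the larger circRNA differed by -0.74 (adjusted p = 0.810), and the smaller circRNA of the same gene by 1.35. TAX1BP1, an autophagy receptor (chr3:98438658-98438984, 478 reads), listed for DG, was highest there at 57.2 ± 27.6 TPM, from 29.87 to 95.43 TPM, but its adjusted p in DG was 0.340. ASTN1 (chr1:206655435-206655622), listed as female biased, was above 0 in 13 of 16 female and 9 of 16 male libraries. ZNF609 (chr7:43078542-43078767, 133 reads) was above 0 in 6 libraries at 10 years and in 5 at 20 years.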

How the data were processed

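The authors deposited a table of circRNA values in TPM for 32 libraries. According to the study's methods, adaptors were trimmed with cutadapt, reads were aligned with BWA and junctions were called with CIRI2, and the build and tool versions are not given in the sources used here. Each value was a whole multiple of the worth of a read in its library for 99.996% of the values above 0 (197695 of 197702 within 0.1 read), and whole reads were recovered in this way, the smallest value being 2 reads. The libraries held 18813 to 894932 reads, and counting error is the only error that depth describes. No column was without a sample.

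The study's expression filter was applied to recovered reads (at least 3 reads in 2 libraries of a region, for 2 or more regions, or 1 region and 6 libraries, or 30 reads in all). The 17050 circRNAs that passed were fitted on log2(TPM + 2.455), where 2.455 TPM is the pseudocount, with limma 3.58.1 in R 4.3.3: each region against the other 7, and 20 against 10 years with region and sex as covariates. Adjustment was by Benjamini-Hochberg over all 17050. Shares of reads were compared between regions by exact permutation tests and between ages by random permutations (SciPy 1.17.1, Python 3.11.15). Both took the libraries as independent and left the pools out of account. Pools pair the libraries by design, since a pool is the same animals in every region. The mean correlation of deviations from the region means was 0.025 within a pool and -0.008 between pools, and 31 of 32 libraries were closest to their own pool. Such deviations sum to 0 over the pools of a region, so the value between pools is tied to that within a pool. Scripts were tested on simulated reads with an assumed spread. The simulated libraries were drawn independently, with no effect of pools, and the changed circRNAs were those above 0 in at least 16 libraries. Kept compact circRNAs had a median of 7 libraries, so the rates below do not carry over to most of them. The age rates also do not describe a comparison that rests on 4 pools. Of 100 circRNAs changed 4-fold and 100 changed 8-fold, the CB test found 5 and 21 and the age test 40 and 78. A circRNA without a call in a region may therefore still differ there.

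Members and gene lists were chosen with earlier results of these data known. Named circRNAs were the 10 with most reads, those with the smallest p (6 per direction in CB, 2 in each other region, 5 for age), those with primers, those at the span limits, the leading member of the 5 hosts with most, and called members of a listed gene group. Some items under this rule are not reported here. Gene names came from the table and a gene name list. Of the 3564 members, 70 had an identifier only. Alternatives covered the pseudocount, the filter, the scaling, the span limit, the 5 libraries with over 95% clean reads, each pool, a test on recovered reads (voom) and the pool as a block.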

Additional observations from a re-analysis of the deposited data

Results flagged for a closer look

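In 17 of 120 groups of 4 libraries a single library lay farther from the others than Dixon's critical value. Chance gives about 1 in 20 only for normal values. These values are in TPM and many are 0, and a group with 1 library above 0 always passes. The 17 can therefore not be set against that rate. The compact share of exonic reads in DG was 14.2% in the 20M library and 12.2% to 12.3% in the others. In CB the 10F library, the shallowest, was the high one for FGFR1 (187.21 TPM), IREB2 (112.32 TPM), ACBD5 (93.6 TPM), ST3GAL2 (93.6 TPM) and HDAC9 (280.81 TPM) and the low one for SUCLA2 (149.77 TPM). The 10M library of CB was alone above 0 for GMIP (9.02 TPM) and SPC24 (12.02 TPM). SMARCA5 reached 6485.43 TPM in the 20M library of CB, where the other CB libraries were at 2768.15 to 3350.99 TPM.

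The 20F library of PFC, which has over 95% clean reads, was apart for EML5 (961.7 TPM), SPG20 (682.97 TPM) and R3HDM1 (778.33 TPM). The remaining values were SUCLA2 in PC_10M (735.98 TPM) and in CA1_10M (323.77 TPM), EML5 in OC_10M, the lowest of its region (832.22 TPM), and MXI1 in OC_20M (463.52 TPM).

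The circRNA of KIF1B, a kinesin of axonal transport (chr1:13389683-13390031), was the compact member whose age difference differed between the sexes by limma with an interaction term, and it was chosen after its values were seen. The log2 difference of 20 against 10 years was 3.10 in females and -1.53 in males, a difference of -4.63 (male minus female, adjusted p = 0.0129). It was above 0 in 0 of 8 libraries of pool 10F, 6 of 10M, 7 of 20F and 1 of 20M. Of all kept circRNAs 0.0469% passed that test. Each sex and age is a single pool of 2 animals, so the interaction and the pools cannot be told apart.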

How the results depend on the processing

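The circRNAs named for a region kept their direction under every alternative that was run. Calls were less stable. Under every alternative fit, 4 of the 35 higher and 4 of the 10 lower in CB stayed called, and 0 of the 17 in the other regions did. The planned edgeR test on recovered reads was not run. The count higher in CB (35) was 21 with a pseudocount of 0.2455 TPM, 12 with circRNAs above 0 in at least 16 libraries, 15 by voom on recovered reads, 58 by the exact permutation p under 0.01 and 12 to 36 with a pool left out. The count lower in CB (10) was 3 by the exact permutation p. The count in the other 7 regions (17) was 10 with a pseudocount of 1, 11 with 0.2455, 1 above 0 in at least 16 libraries, 11 with size factors, 27 without the 5 libraries, 49 by voom, 68 by the exact permutation p and 8 to 24 with a pool left out. The causes were not tested. For the share of reads, the alternatives without the 10 members with most reads, without the 5 libraries and without each pool were chosen after seeing the data.

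For age, 0 in either direction became 35 and 35 at an unadjusted limma p under 0.05, 14 (20 years) and 24 (10 years) by the study's unpaired test on TPM at an unadjusted p under 0.05, 1 toward 10 years above 0 in at least 16 libraries and 0 to 1 toward 20 years with a pool left out. With the replicate block, the pairing by pool, the counts were 34 higher and 11 lower in CB, 14 in the other regions, 1 toward 20 years (LATS1) and 1 toward 10 years (TAF9), both from a negative estimated correlation within pools (-0.030).

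The share difference reversed for CB with spans under 400 bases (-0.0625 points), for PCC without the 10 members with most reads (-0.0508) and with a pool left out (down to -0.557, and -0.231), and for DG without the 5 libraries (-0.298) and with a pool left out (-0.0290). The age difference of HSPA9 was -0.034 without pool 10M or 20M, and that of MAP3K9 was -0.54 without 10F or 20F and ran from -0.11 without OC to 0.46 without CB. CB rests on 486881 reads in all, so low members there have few reads.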
